A study of Mus musculus with 6 samples.

Results

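The genes described here are 10 mouse genes of neutrophil recruitment and of the neutrophil itself, read in the ligated and the contralateral kidney of 3 mice. They are the chemokines Cxcl1, Cxcl2 and Cxcl5, the receptors Cxcr2 (named Il8rb on the array) and Csf3r, and the neutrophil proteins S100a8, S100a9, Ltf, Ngp and Camp. Members were matched by gene name among the non-control probes, but the list itself was chosen with earlier results of these data known. All 10 of 10 were found, with 12 probes in all, among 28478 genes named on the array. The study used unilateral ureteral obstruction, a mouse model of renal fibrosis in which the left ureter is tied and urine backs up into the kidney. Each of 3 CD-1 mice (495, 485 and 512), an outbred stock, gave a left kidney with ligation and a right kidney without it, the internal control, with 1 single-colour Agilent array per kidney. Both kidneys of a mouse share its operation, since no animal without ligation was analysed here. Age, sex and the time after ligation are not given in the sources used here. The tissue labels name kidney and the cell type labels name primary cells. All 10 of 10 proximal tubule markers looked up were above background on every array.

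Neutrophils are short-lived white blood cells that are made in the bone marrow and leave the blood at sites of injury or infection. Cxcl1, Cxcl2 and Cxcl5 are small secreted proteins that draw neutrophils along a gradient by binding Cxcr2, their shared receptor on the neutrophil surface. Csf3r is the receptor for G-CSF, the cytokine that drives neutrophil production. S100a8 and S100a9 pair up as calprotectin, an abundant protein of the neutrophil cytosol that monocytes also carry. Ltf (lactoferrin, which binds iron), Ngp (neutrophilic granule protein) and Camp (the cathelicidin precursor of an antimicrobial peptide) are packed into granules while the neutrophil matures in the marrow, so their transcripts belong mainly to immature cells. Epithelial cells can make the chemokines, lactoferrin and cathelicidin as well.

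The promoters of the chemokines Cxcl1 and Cxcl2 show what these 2 genes share outside the measured values. They are printed here with stretches that read like a binding site of NF-kappaB, a transcription factor of inflammation, in capitals. The search used the letters GGNNNTTCC on both strands of 300 bases around each RefSeq gene start (250 before it, 50 after it, GRCm38.p6). Of the 10 genes, 9 had a promoter there. Cxcl5 had none and was not searched. These letters occurred in 18.5% of all 32851 promoters, or in at least 1 promoter of 20.7% of 27025 genes. Cxcl1 and Cxcl2 each held 2 such positions, within 100 bases before the start, and Cxcl3, a chemokine of the same family that was measured beside the members, held 2 as well. Each of the 3 windows below runs from 110 to 36 bases before the start on the plus strand. The letters GGAATTTCC, which match on both strands, stood in all 3 windows.
Cxcl1, chr5:90891135-90891209: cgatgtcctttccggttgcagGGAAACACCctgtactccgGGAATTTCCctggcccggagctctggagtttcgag
Cxcl2, chr5:90903789-90903863: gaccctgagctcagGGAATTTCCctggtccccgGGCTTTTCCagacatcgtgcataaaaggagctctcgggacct
Cxcl3, chr5:90785991-90786065: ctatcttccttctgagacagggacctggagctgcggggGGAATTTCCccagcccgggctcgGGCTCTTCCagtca

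Among the members searched, Csf3r was the other one with the letters, at 1 position. Cxcr2, S100a8, S100a9, Ltf, Ngp and Camp had none in this window. The letters TTNNGNAAT, a form of the site of the C/EBP factors, which act in granulocyte development, stood at 1 position each in the promoters of S100a9, Ngp and Ltf, and in 11.5% of all promoters (13.1% of genes). No member searched held both motifs. The windows below show the C/EBP letters in capitals, on the gene's own strand, as the forward or the reverse complement match. A match describes letters only.
S100a9, chr3:90695829-90695868, minus strand: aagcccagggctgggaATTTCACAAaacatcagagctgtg
Ngp, chr9:110419653-110419692, plus strand: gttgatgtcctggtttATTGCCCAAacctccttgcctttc
Ltf, chr9:111019201-111019240, plus strand: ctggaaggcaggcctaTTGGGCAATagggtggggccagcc

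The members lie in a few chromosomal groups. In the mm8 coordinates of the array, the probes of Cxcl5, Cxcl1 and Cxcl2 mapped to chromosome 5 and those of S100a8 and S100a9 to chromosome 3. Camp, Ngp and Ltf mapped to chromosome 9, Cxcr2 to chromosome 1 and Csf3r to chromosome 4. The granule protein probes are printed because the widest disagreement between mice rests on them. They are the 60-base probes as the array carries them, all in lower case. The longest run of letters that any 2 probes of different members shared was 10 bases. The Ngp probe is annotated over 549 bases and the first Ltf probe printed below over 3051 bases of genome, so their letters come from separate stretches. That Ltf probe is the dimmer one in the levels given later.
Ngp, chr9:110266929-110267477, plus strand: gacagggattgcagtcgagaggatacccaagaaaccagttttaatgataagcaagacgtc
Camp, chr9:109704884-109704943, minus strand: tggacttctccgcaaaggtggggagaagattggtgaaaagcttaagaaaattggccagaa
Ltf, chr9:110880576-110883626, plus strand: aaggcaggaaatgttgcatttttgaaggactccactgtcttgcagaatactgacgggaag
Ltf, chr9:110885185-110885244, plus strand: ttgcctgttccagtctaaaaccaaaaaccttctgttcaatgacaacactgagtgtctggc

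Levels below are the processed signal as a percentage of the array's own 75th percentile, and values are given for mice 495, 485 and 512 in that order. That percentile was 671 to 1105 intensity units in contralateral and 1068 to 1433 in ligated kidneys, and 65.3% to 69.0% and 71.6% to 74.2% of probes were well above background. Levels of different probes are not set against each other, apart from sums over marker lists and a count of bright probes given below. Such sums weigh bright probes most: the tubule marker Kap alone gave 50852%, 51892% and 27990% in the contralateral kidneys. The contralateral kidney of mouse 512 stood apart: its 10 tubule markers summed to 44518%, against 129382% and 141057% in the other contralateral kidneys and 25788% to 33248% in the ligated kidneys. Results are therefore also given without that mouse. The number of arrays limits the precision, and in whole tissue fewer cells of a type and less RNA per cell cannot be told apart.

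In the ligated kidney the chemokine Cxcl5, the G-CSF receptor Csf3r, the calprotectin subunit S100a8 and the granule protein Ltf rose, and no member fell. Of the 10 members, 8 passed the filter on dim probes and were tested, and 4 of these 8 were called higher (limma, paired by mouse, adjusted p under 0.05), where 16.0% of all 19598 genes tested were called higher and 30.7% were called in either direction. Ngp and Camp did not pass, since they were above background in a single kidney. The 8 tested members had a median log2 change, ligated minus contralateral, of 2.35, against -0.01 for all genes. Of the 8, 6 were higher in the ligated kidney of all 3 mice, as were 34.3% of all genes, and 3 (Cxcl5, Cxcr2 and Csf3r) had groups that did not overlap, as did 24.7% of all genes. Of these 8, 5 passed the filter only through the ligated group, which favours a rise.

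The size of the difference varied between the mice. Mouse 512 was the only animal on slide 2, so animal and slide cannot be told apart for it. Mice 495, 485 and 512 had median within-mouse log2 differences of 3.28, 2.45 and 0.86 over the 8 tested members. Mouse 512 had the smallest difference of the 3 for each tested member other than Ltf. Without mouse 512, 8 of 8 were called and the median was 2.73, in a fit that called 5368 genes higher; without mouse 495 or without mouse 485, 0 members and 0 of all genes were called (4950 and 4948 genes at an unadjusted p under 0.05). Without the pairing by mouse, 2 members were called, Cxcl5 and Csf3r.

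**Figure D1:**
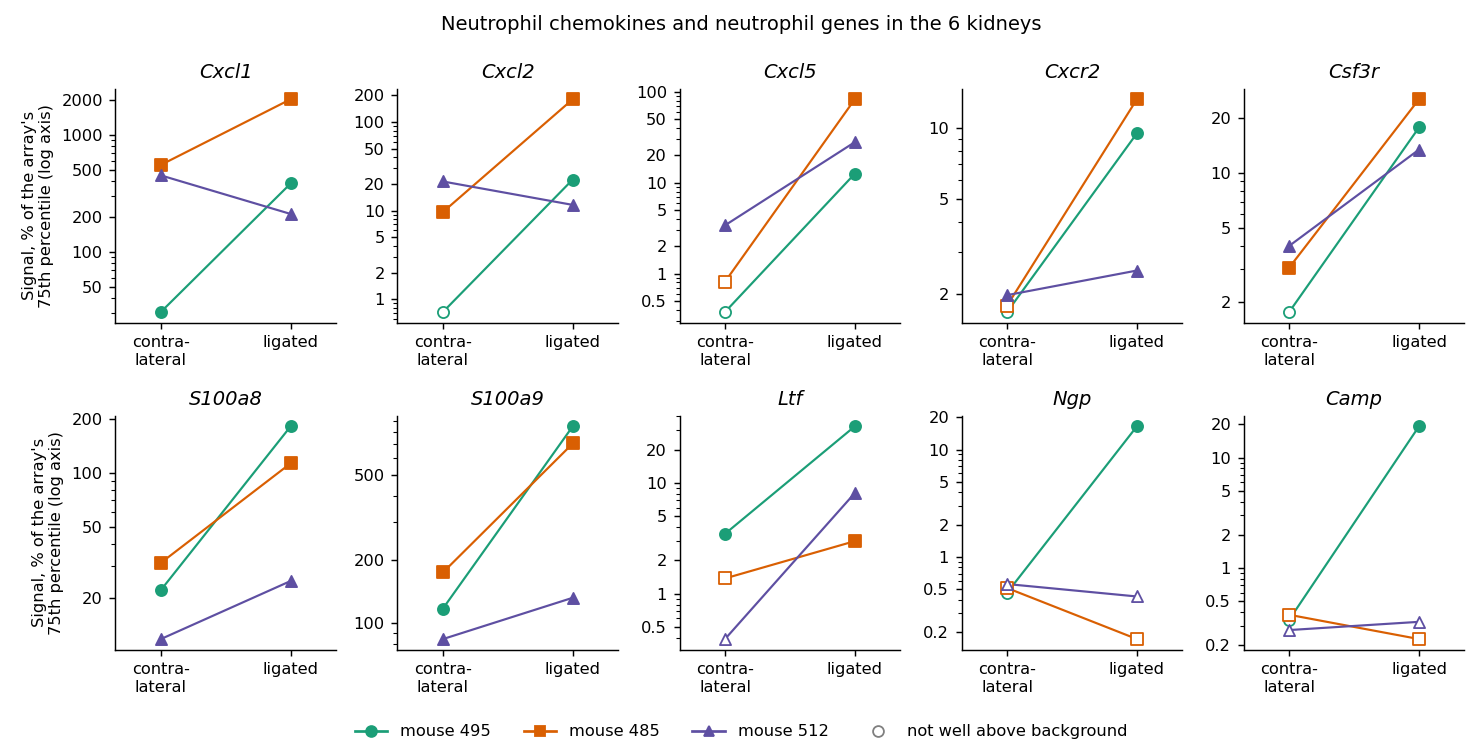
Processed signal of the 10 members as a percentage of the array's 75th percentile (log axes, 1 panel per gene), with a line joining the contralateral and ligated kidneys of each mouse and open symbols where the probe was not well above background. Cxcl5 and Csf3r are higher in the ligated kidney of every mouse, Cxcl1 and Cxcl2 are lower there in mouse 512, and Ngp and Camp stand above background in the ligated kidney of mouse 495 alone.

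Among the chemokines, Cxcl5, which is made mostly by epithelial and stromal cells, was the member with the largest fitted change. Its scaled signal was 0.377%, 0.813% and 3.40% in the contralateral kidneys and 12.6%, 83.0% and 28.0% in the ligated kidneys. Every ligated kidney was above every contralateral kidney, and mouse 512 was the single animal whose contralateral probe was well above background. The rise was at least 14.8-fold (log2 change 4.92 ± 0.75 SE, n = 3 mice, adjusted p = 0.028). Here and below "at least" means that the dim group was raised, array by array, to the lowest signal well above background where the probe lay under it. For Cxcr2 and Csf3r the dim values already lay above that signal, so no bound was applied. Some of those values were still not flagged well above background, so the sizes of both folds are uncertain. With normexp background correction the log2 changes of Cxcr2 and Csf3r were 0.48 and 1.06. Those of Cxcl5 and Ltf were 2.07 and 0.73, under the bounds given here. The bounds therefore belong to the main processing only. The within-mouse log2 differences of Cxcl5 were 5.06, 6.67 and 3.04.

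Cxcl1 behaved differently between animals. Its scaled signal was 30.4%, 553% and 450% in the contralateral kidneys and 384%, 2023% and 210% in the ligated kidneys, and all 6 values were well above background. The groups overlapped: the untied kidneys of mice 485 and 512 lay 18.2-fold and 14.8-fold above that of mouse 495, and above the ligated kidney of mouse 495 too. Within mice the ligated kidney was higher by 3.66 and 1.87 on the log2 scale in mice 495 and 485, and the difference was -1.10 in mouse 512. The mean log2 change was 1.48 ± 0.98 (n = 3 mice, adjusted p = 0.284), so no change passed the threshold.

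Cxcl2, which macrophages release early in inflammation, had the same shape at other levels. The contralateral kidneys gave 0.719%, 9.66% and 21.3%, the first of them not well above background, and the ligated kidneys gave 22.5%, 181% and 11.6%. The ligated kidney of mouse 512 was thus below its untied partner and 15.6-fold below the ligated kidney of mouse 485. The within-mouse log2 differences were 4.97, 4.23 and -0.88, and the mean was 2.77 ± 1.30 (n = 3 mice, adjusted p = 0.161). The 4.97 rests on the contralateral value that was not well above background, so its size is uncertain. With normexp the mean was 1.44. In the fit without mouse 512, both Cxcl1 and Cxcl2 were called higher.

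Cxcl1 and Cxcl2 were among the most variable genes within either group. In contralateral kidneys the standard deviation of log2 signal was 2.34 for Cxcl1 and 2.56 for Cxcl2, against a median of 0.35 over all genes tested, which placed them at percentiles 99.4 and 99.6. In ligated kidneys it was 1.69 and 2.07, against a median of 0.18. The gene whose profile over the 6 kidneys lay nearest to that of Cxcl1, by Euclidean distance of centred log2 values, was Atf3, a stress-induced transcription factor (distance 0.60), followed by the immediate early gene Fos (1.70) and the chemokine Cxcl10 (1.92). Atf3 was also nearest to Cxcl2 (1.56), before Fosl1, another member of the Fos family (1.93), and Cxcl1 itself (1.97). The scaled signal of Atf3 was 19.0%, 261% and 326% in contralateral and 263%, 1387% and 171% in ligated kidneys, so it too was lower in the ligated than in the untied kidney of mouse 512. Fos gave 3.18%, 154% and 30.6% against 27.1%, 285% and 29.6%. Both genes, like Cxcl1, were lowest in the untied kidney of mouse 495 and highest in the ligated kidney of mouse 485. Cxcl5 had other neighbours: the macrophage elastase Mmp12 (1.18), the monocyte chemokine Ccl7 (1.79) and Rgs16, a regulator of G protein signalling (1.85).

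**Figure D2:**
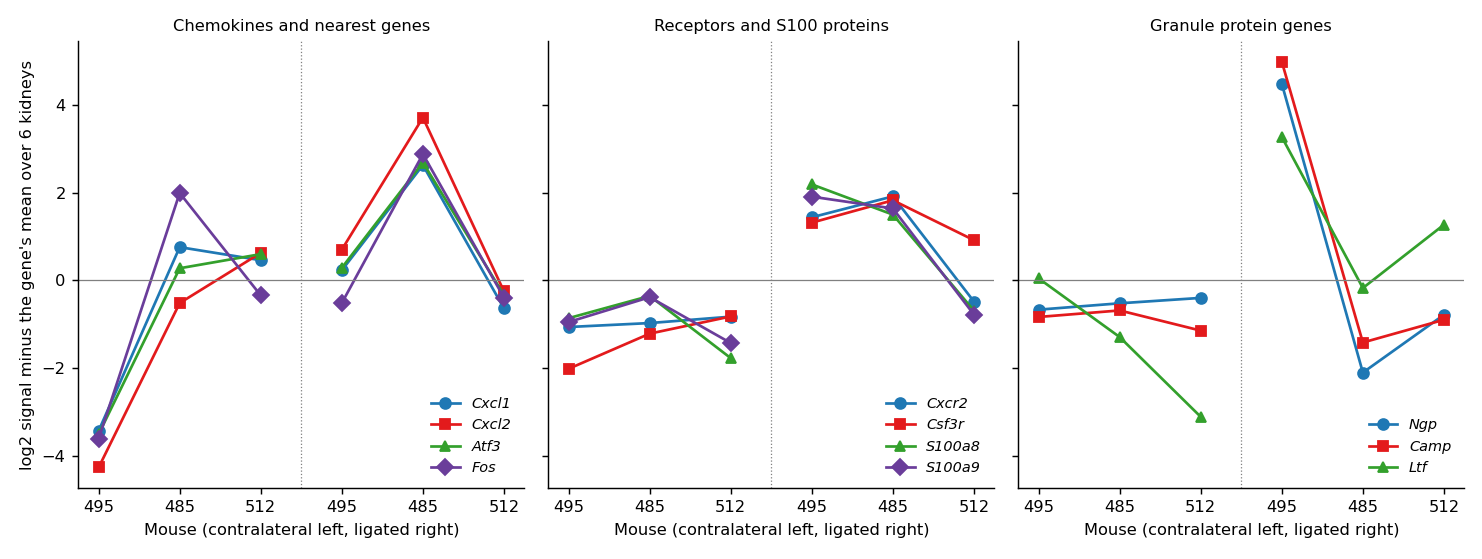
Log2 signal of each gene minus its own mean over the 6 kidneys, with the contralateral kidneys of mice 495, 485 and 512 left of the dotted line and the ligated kidneys right of it; lines join kidneys of a group for legibility. Cxcl1, Cxcl2, Atf3 and Fos are lowest in the contralateral kidney of mouse 495 and highest in the ligated kidney of mouse 485, the S100 genes and Cxcr2 drop in the ligated kidney of mouse 512, and Ngp and Camp peak in the ligated kidney of mouse 495.

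Of the receptors, Csf3r rose in the ligated kidney. Its scaled signal was 1.76%, 3.06% and 4.02% in contralateral kidneys, the first of them not well above background, and 17.7%, 25.2% and 13.4% in ligated kidneys. The groups were well apart, with the lowest ligated value above the highest contralateral value, and the ligated kidneys differed from each other by less than the groups did. The change was 6.51-fold (log2 2.70 ± 0.37, n = 3 mice, adjusted p = 0.026), with differences of 3.33, 3.04 and 1.74. Csf3r and Cxcl5 were called in 12 of the 14 alternative settings that tested them, and lost the call without mouse 495 or without mouse 485. The nearest profiles to Csf3r were Il1rl1, the receptor for interleukin 33 (0.63), the ubiquitin ligase Neurl3 (0.64) and the stefin Stfa2l1 (0.65), a gene of the neutrophil list below.

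Cxcr2, the receptor of all 3 chemokines, read near background in the untied kidneys and was uneven across the ligated ones. The brighter of its probes gave 1.67%, 1.78% and 1.97% in contralateral kidneys, of which mouse 512 alone was well above background, and 9.47%, 13.2% and 2.50% in ligated kidneys. Every ligated value was above every contralateral value, but that of mouse 512 only just. The log2 differences were 2.50, 2.89 and 0.34, with a mean of 1.91 ± 0.57 (3.76-fold, n = 3 mice), which did not pass the threshold (adjusted p = 0.0694). A second Cxcr2 probe gave 0.682%, 0.522% and 0.320% against 2.92%, 5.07% and 0.702%. It was well above background in the ligated kidneys of mice 495 and 485 only, the same animals in which the first probe was high.

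The calprotectin genes moved together. The scaled signal of S100a8 was 22.0%, 31.3% and 11.7% in contralateral and 182%, 113% and 24.8% in ligated kidneys. S100a9 gave 117%, 174% and 84.3% against 851%, 706% and 132%. In both genes the ligated kidney was higher in each mouse, and in both the ligated kidney of mouse 512 lay within the range of the untied kidneys of the other mice, so the groups overlapped. S100a8 rose 3.98-fold (log2 1.99 ± 0.42, n = 3 mice, adjusted p = 0.039). S100a9 was 3.59-fold higher on average (1.84 ± 0.47), just outside the threshold (adjusted p = 0.053), and was called in 6 of 15 alternative settings, against 9 of 15 for S100a8. The log2 differences fell in the same order in both genes, 3.05, 1.85 and 1.08 for S100a8 and 2.86, 2.02 and 0.65 for S100a9.

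S100a8 and S100a9 had the closest profiles of any pair of tested members (distance 0.48), followed by Cxcr2 with S100a9 (1.05) and Cxcr2 with S100a8 (1.45). The pair farthest apart was Cxcl2 with Ltf (7.56). Over all genes tested, too, each was the nearest to the other. Next to S100a8 came Bves (1.07), a membrane protein of muscle and epithelium, and Xirp2 (1.25), an actin-binding protein of striated muscle. Xirp2 was second to S100a9 (0.94) and nearest to Cxcr2 (0.51), and the transcription factor Hic1 (0.96) was also near Cxcr2. With 6 kidneys such likeness is a description.

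The granule protein genes split the mice in another way. The brighter Ltf probe gave 3.48%, 1.38% and 0.391% in contralateral kidneys, of which mouse 495 alone was well above background, and 32.5%, 2.99% and 8.12% in ligated kidneys, all well above background. The ligated kidney of mouse 495 was 10.9-fold above that of mouse 485, whose value was lower than the untied kidney of mouse 495. Ltf rose at least 4.71-fold (log2 2.91 ± 0.68, n = 3 mice, adjusted p = 0.046), with differences of 3.22, 1.12 and 4.38. The dimmer Ltf probe, the first of those printed above, gave 1.46%, 0.359% and 0.271% against 14.1%, 1.48% and 3.75%. It ranked the ligated kidneys in the same order. Of the 4 calls that of Ltf was the least stable, kept in 6 of 14 alternative settings. With normexp its log2 change was 0.73. The nearest profiles to Ltf, Ly6d (2.35), Cthrc1 (2.39) and Dnah8 (2.42), lay farther from it than those of any other member did.

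Ngp and Camp were above background in the ligated kidney of mouse 495 and nowhere else. Ngp gave 0.464%, 0.513% and 0.559% in contralateral kidneys and 16.5%, 0.172% and 0.428% in ligated kidneys. Camp gave 0.341%, 0.378% and 0.275% against 19.3%, 0.228% and 0.327%. In processed intensity, the ligated kidney of mouse 495 read 224 for Ngp and 262 for Camp, while the other 5 kidneys read 2.5 to 6.2 for either gene. No fold against kidneys below background is given, and neither gene was tested.

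A reading above background on a single array was common. There were 462 such probes for the ligated kidney of mouse 495 and 118 to 404 for the other 5 arrays. Of the 462, 3 were at least as bright as 16.5%: Ngp, Camp and Krt15, a keratin of basal epithelial cells (55.9%). That cutoff is the level of Ngp itself, the dimmer of Ngp and Camp in that kidney. Both therefore pass it by construction, and whether they are unusual was not tested. Krt15 was singled out after its values were seen. On the other arrays 0 to 2 such probes reached that level.

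Some other epithelial genes were also high in that kidney. Among 6 urothelium markers, Upk1b (6.94%), Upk2 (5.58%), Upk3a (17.1%) and Krt5 (70.9%) were at their highest in the ligated kidney of mouse 495, while each was at most 4.15% in the other 5 kidneys. Upk1a did not share this, with 7.34%, 4.85% and 5.54% in contralateral and 7.20%, 5.82% and 3.47% in ligated kidneys. The summed signal of the 6 markers was 19.7% to 89.8% in contralateral kidneys and 484%, 571% and 138% in the ligated kidneys, most of it from Krt20, which was also high in mouse 485 (560%). Of the 6, 3 were tested and 0 passed the threshold. The part of urothelium in the Ngp, Camp and Ltf signal of mouse 495 was not tested.

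**Figure D3:**
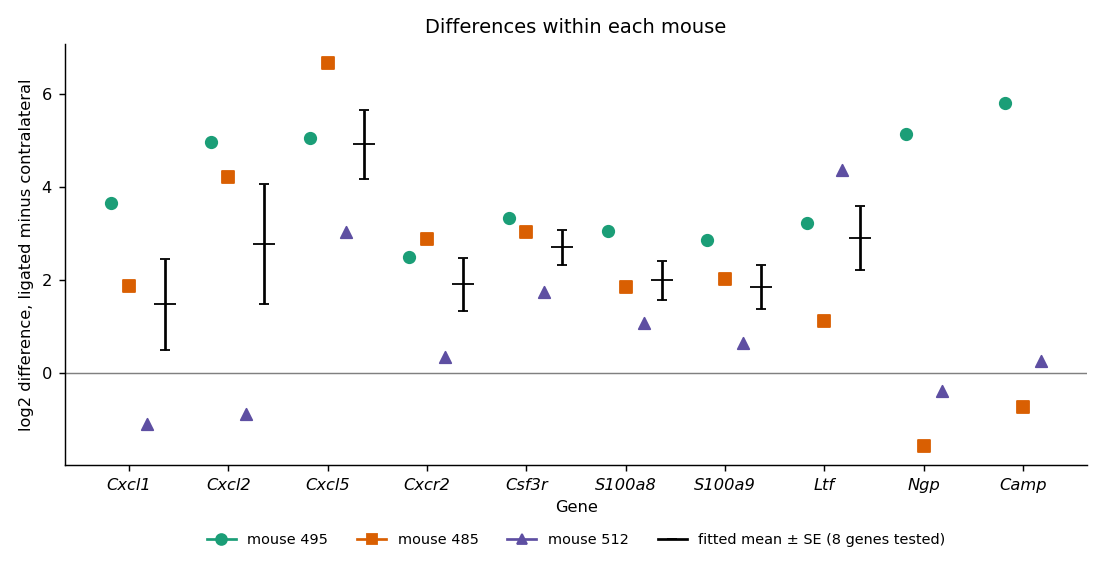
Log2 difference, ligated minus contralateral, of each member within each mouse, with the fitted mean and its standard error as black bars for the 8 genes tested (n = 3 mice). Mouse 512 has the lowest point for each tested gene other than Ltf, and Ngp and Camp differ upward in mouse 495 only, apart from 0.25 for Camp in mouse 512, where both values were below background.

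Other genes of neutrophil recruitment, granules and surface rose as well. Of 76 listed in 3 groups, 56 were tested, 35 were called higher and 2 lower, again beside 16.0% and 14.7% of all genes. Of 26 recruitment signals, 19 were tested, with 11 higher, 1 lower and a median log2 change of 1.74 (1.85, 1.73 and 1.25 in mice 495, 485 and 512). First by fitted log2 change were Cxcl3 (log2 3.45 ± 0.65, at least 3.07-fold), Tnf (3.09 ± 0.57, at least 7.20-fold), Csf2, the gene of GM-CSF (3.04 ± 0.48, at least 2.20-fold), and Pf4, platelet factor 4 (2.84 ± 0.58, 7.19-fold), all at n = 3 mice, with no order among folds given as bounds. Cxcl3, below background in all 3 untied kidneys, gave 3.43%, 11.6% and 2.47% in the ligated kidneys, so mouse 485 was highest, as for the member chemokines. The gene that fell was Nampt, an enzyme of NAD synthesis also released as a cytokine (-1.28 ± 0.14). Csf3, the gene of G-CSF itself, was above background in the ligated kidneys of mice 485 and 512 only and was not tested, and Il17a was above background in no kidney.

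Of 18 further granule genes, 13 were tested, with 8 higher, 1 lower (Cd63, a membrane protein of granules and lysosomes in many cells) and a median of 2.82 (3.43, 3.13 and 1.74 by mouse). First by fitted log2 change were the gelatinase Mmp9 (3.52 ± 0.36, at least 8.27-fold), haptoglobin, Hp (3.38 ± 0.36, 10.4-fold), lysozyme, Lyz2 (3.24 ± 0.38, 9.46-fold), whose probe may also bind the near-identical Lyz1, and the leukocyte membrane protease Mmp25 (3.02 ± 0.40, at least 3.36-fold). Mmp8, the neutrophil collagenase, was below background in all 3 untied kidneys and gave 4.34%, 5.29% and 4.72% in the ligated kidneys (2.82 ± 0.41, at least 3.07-fold, adjusted p = 0.027). It was as high in mouse 512 as in the others, unlike S100a8, S100a9 and Cxcr2. Of the genes of the primary granules, which fill earliest in the marrow, Prtn3, proteinase 3, rose (1.14 ± 0.24, at least 1.76-fold, adjusted p = 0.039). Mpo, myeloperoxidase, was 3.70%, 3.04% and 6.28% against 8.90%, 2.89% and 4.83% (0.27 ± 0.38, adjusted p = 0.589), and Elane, neutrophil elastase, was above background in the ligated kidney of mouse 485 only (4.12%). Ctsg, another gene of the granule list, gave 0.961%, 2.39% and 1.60% against 2.60%, 0.533% and 0.960% and was not tested. It was lower in the ligated than in the untied kidney of mice 485 and 512. Bpi, of the same list, was above background in no kidney.

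Lcn2, the granule protein lipocalin 2 that injured tubules also make, had 38.1%, 16.1% and 1931% in contralateral and 1422%, 1807% and 1663% in ligated kidneys. The untied kidney of mouse 512 was thus at the level of the ligated ones, and the mean change of 3.94 ± 1.50 did not pass the threshold (adjusted p = 0.110).

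Of 32 surface and signalling genes, 29 were found on the array and 24 tested, with 16 higher, 0 lower and a median of 2.44 (2.79, 2.37 and 1.43 by mouse). By the same measure the first were the decoy receptor Il1r2 (3.66 ± 0.37, at least 6.11-fold), Csf2rb2 (3.39 ± 0.48), a receptor subunit of interleukin 3 with a close paralog, Csf2rb, the paired receptor Pilra (3.21 ± 0.57, 9.27-fold) and the integrin Itgam (3.13 ± 0.67, 8.78-fold). Csf2rb, in the same list, went the other way (-0.66 ± 0.26) without passing the threshold (adjusted p = 0.113). Il1r2 gave 0.657%, 0.456% and 1.59% against 7.46%, 11.0% and 11.8%, with mouse 512 highest. Cd177, a surface protein of neutrophils, was above background in no kidney, and Ly6g was not matched by name on the array.

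**Figure D4:**
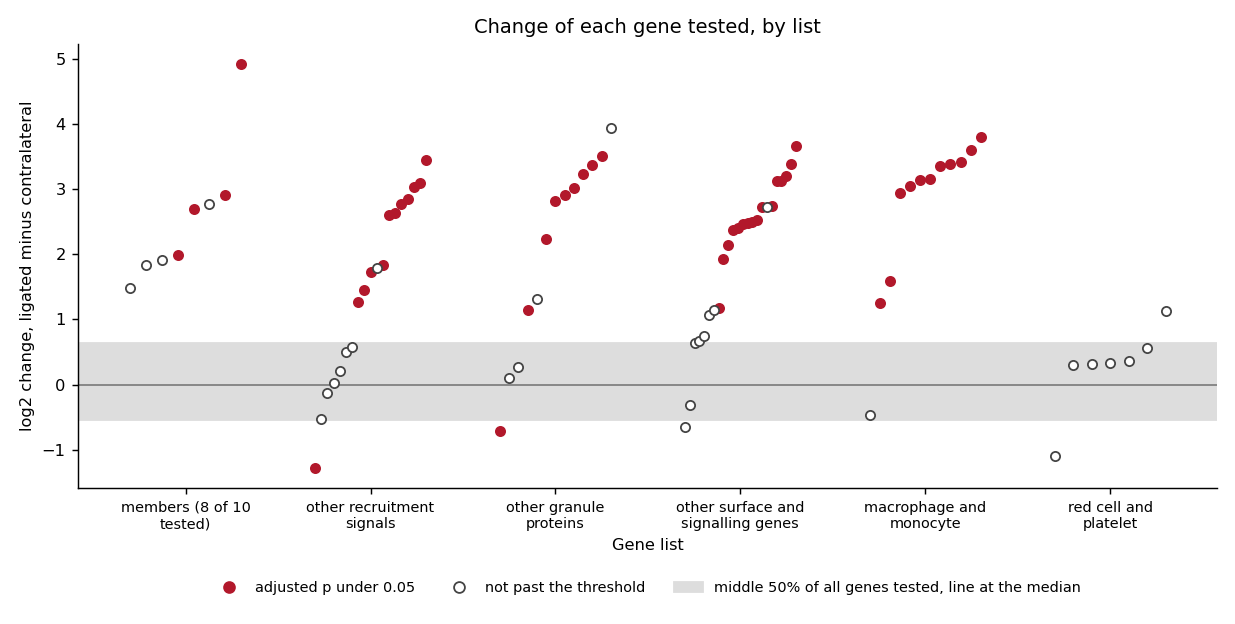
Log2 change of every tested gene, ligated minus contralateral, in the members, the 3 lists of further neutrophil genes and the lists of macrophage and of red cell and platelet markers; filled points passed the threshold (adjusted p under 0.05), the grey band holds the middle 50% of all 19598 genes and its line is their median. Most neutrophil and macrophage genes lie above the band (medians 2.35, 1.74, 2.82, 2.44 and 3.15 for the first 5 lists), and the red cell and platelet genes scatter around it.

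Several of these genes, among them Lyz2, Itgam, Csf2rb2, S100a8 and S100a9, are also expressed by monocytes and macrophages, and markers of those cells moved the same way. Of 12 macrophage and monocyte markers, 12 were tested and 11 were called higher (not the probe with the older name Ly6c), with a median of 3.15 and none at background in any kidney. Their summed signal was 11484% to 14199% in contralateral and 16011% to 19989% in ligated kidneys, and most of the contralateral sum came from the Ly6c probe, at 10689% to 12992% there and 6933% to 9557% in ligated kidneys. Within mice their median log2 difference was 3.69, 3.89 and 1.87, so mouse 512 was lowest there as well. Among 10 eosinophil and mast cell markers, 5 were tested and 2 were called higher, Prg2 and Siglecf, while Epx was above background in no kidney; the summed signal was 17.5% to 39.1% against 52.5% to 72.4%. Of the T and NK cell markers, 5 of 9 tested were called higher, and of the B cell markers 3 of 6. B cell markers had their largest within-mouse median difference in mouse 512 (0.91, 1.78 and 3.17 for the 3 mice), where the members had their smallest. The share of any of these cells in the members' signal was not tested. Red cell and platelet markers had a median change of 0.34, with 0 of 7 called and a summed signal of 1399% to 3430% against 2486% to 2885%.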

How the data were processed

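Per the labels' protocols, total RNA was labelled with Cy3 and hybridised as cRNA. In the deposited scanner tables, the processed signal is a linear intensity, background-subtracted within the array and not scaled between arrays, per the file headers; spot means and background medians are intensities too. Flags well above background, saturated and outlying are deposited scores of 0 or 1. The deposited value table is a linear ratio, the processed signal over the array's median. The headers name Feature Extraction 10.5.1.1 and mm8, the submitters' processing notes version 9.1; this was not resolved.

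Control spots and flagged outliers (43 to 79 of 43379 per array) were left out; 0 spots were saturated. Log2 processed signal minus the array's 75th percentile was averaged over spots of a probe. Probes above background (at least 0.5 of spots) on all 3 arrays of a group were kept, and the brightest stood for its gene. Of 41174 probes, 24375 were named through RefSeq accessions and 16799 kept the file's name. limma 3.58.1 in R 4.3.3 (lmFit, eBayes, two-sided) was fitted to all 19598 genes with the mouse as a block and Benjamini-Hochberg adjustment; 2 residual degrees of freedom were joined by 2.06 prior ones. The script was tested on simulated data.

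Kidneys were paired by the animal number in their titles; deviations from group means correlated within mice (r = 0.194, 0.481 and 0.271 for 495, 485 and 512) more than between them (at most 0.018). Slide 1 held mice 495 and 485, slide 2 mouse 512, so mouse is nested in slide. Replicates are animals. Members, gene lists, settings and the naming rule were chosen with earlier results of these data known. The rule named all members, the 4 called genes of largest change per list, 10 genes in any case (among them Csf3, Il17a, Mpo, Elane, Lcn2, Mmp8, Ly6g and Cd177) and the 3 nearest profiles per tested member, not all of which are reported here; others were chosen after their values were seen. Listed but unmatched by name were Ly6g, Stfa1, Cebpe and Hbb-b1.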

Additional observations from a re-analysis of the deposited data

How the results depend on the processing

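Under the 15 alternatives run, each of the 8 members tested in the paired fit kept a positive log2 change wherever it was tested. Against 6019 genes called (3137 higher, 2882 lower), centring on spike-in spots called 3190 (2466 and 724), no filter on dim probes 2683 (1773 and 910), median centring 8507 (2566 and 5941) and the values in the deposited table of ratios 8499 (2561 and 5938); normexp background correction called 1991 higher and 2765 lower. The median change of all genes moved from -0.01 to -0.32 with median centring or the value table, 0.29 with spike-ins, -0.18 with normexp, -0.23 with no filter and -0.11 with the filter on all 6 arrays. The members' median ranged from 1.42 with normexp to 2.73 without mouse 512. Against 4 members called, 2 were called with quantile normalization, with no filter, without the replicate block and without the contralateral kidney of mouse 512 (unpaired); these were Cxcl5 and Csf3r each time. The filter on all 6 arrays also called 2, S100a8 and S100a9, and left Cxcl5 and Csf3r untested. Leaving out 1 mouse gave 0 to 11026 genes called, 0 to 5368 higher, 0 to 5658 lower, 0 to 8 members and 0 to 47 companion genes, the 0 each time without mouse 495 or mouse 485. The unpaired fit without the contralateral kidney of mouse 512 called 11042 genes, 5168 higher and 5874 lower. Of the companion genes, 37 were called in the paired fit, 24 with normexp and 20 with the filter on all 6 arrays. The cause of these shifts was not tested, other than that leaving out a mouse leaves 1 residual degree of freedom. Signals near background limit Cxcl2, Cxcr2, Csf3r, Cxcl5, Ltf, Ngp and Camp most.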

Other observations

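In the untied kidney of mouse 512, several genes of the neutrophil lists stood far above the other untied kidneys, and these were picked after their values were seen. Padi4, the enzyme that citrullinates histones in neutrophils, was read on 1 of its 3 probes, and the other Padi4 probes were not compared. Its scaled signal was 0.780%, 1.21% and 111% in untied and 16.5%, 8.77% and 211% in ligated kidneys, in the order 495, 485, 512. Both kidneys of mouse 512 were thus above all others. Lrg1, a secreted glycoprotein of neutrophil granules and liver, had 173%, 110% and 1851% against 494%, 446% and 651%, so its highest value was in an untied kidney. Trem1, an activating receptor of myeloid cells read on 1 of its 2 probes, had 0.406%, 0.920% and 6.39% against 3.28%, 13.5% and 15.6%. S100a8, S100a9 and Ltf were lowest in that same untied kidney, where Ltf was not well above background. Retnlg, a neutrophil resistin-like protein, gave 3.05%, 6.22% and 0.910% against 3.87%, 11.8% and 1.77% and, like S100a8 and S100a9, was lowest in mouse 512 in both groups (log2 change 0.74 ± 0.19, adjusted p = 0.0547).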
